A study of Mus musculus with 6 samples.

Results

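The miR-29 and miR-30 families are microRNAs (miRNAs), short RNAs that lower the output of messenger RNAs carrying a match to their seed, the stretch near the 5′ end. miR-29 is best known for targeting collagen and other matrix transcripts. miR-30 is known for targeting Runx2, the transcription factor that drives chondrocyte hypertrophy and osteoblast formation, and Smad1, which carries bone morphogenetic protein signals. The members described here are mmu-miR-29a, mmu-miR-29b, mmu-miR-29c, mmu-miR-30a, mmu-miR-30b, mmu-miR-30c, mmu-miR-30d and mmu-miR-30e (mmu for mouse, left off from here on), taken by their exact names in the scanner files. These are 8 of the 690 mouse miRNAs on the array and are read by 17 of its 1928 probes.

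Levels came from 6 one-colour Agilent arrays, each with RNA from the microdissected growth plate of the femur of C57BL/6 mice aged 12 days. The growth plate lengthens long bones, and its chondrocytes pass from a proliferative through a prehypertrophic into a hypertrophic zone. Each zone had 2 arrays, and each array received 100 ng of RNA from 5 pooled growth plates, with no treatment or mutation in any group. The arrays are called here by the number in their sample title: 13 and 16 are proliferative, 14 and 17 prehypertrophic, and 15 and 18 hypertrophic. The labels do not tie arrays to animals, so p-values measure only the spread between these samples.

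The mature sequences, from RefSeq (GRCm38.p6), are shown because members of a family share a seed and differ by few bases elsewhere. A match was found for 6 of the 8 members, all but miR-30b and miR-30d. Each is printed 5′ to 3′ with the seed (bases 2 to 8) in capitals:
miR-29a: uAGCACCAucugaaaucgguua
miR-29b: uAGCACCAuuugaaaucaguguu
miR-29c: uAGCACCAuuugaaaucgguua
miR-30a: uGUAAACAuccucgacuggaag
miR-30c: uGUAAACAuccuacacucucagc
miR-30e: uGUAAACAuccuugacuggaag

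All 3 miR-29 sequences carried the seed AGCACCA, and all 3 miR-30 sequences carried GUAAACA. Counted from the 5′ end, miR-29a and miR-29c differed by 1 base (C10U), and miR-30a and miR-30e also by 1 (C13U). miR-29a and miR-29b differed at 4 of their first 22 bases (C10U, G18A, U21G and A22U), and miR-30a and miR-30c at 5 (C13A, G14C, G18C, G19U and A20C). Among the other mouse miRNAs in the sequence table used here, which is not complete, miR-384-5p carried the miR-30 seed. The probes' own sequences were not used here, so how far a probe separates members that differ by 1 base was not tested.

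The families come from hairpins that lie in neighbouring groups. The positions given here are those of the mature sequence within each hairpin, not of the whole hairpin. miR-29a lies on chromosome 6 (31062673 to 31062694, minus strand) beside a hairpin for miR-29b (31063025 to 31063047, minus strand). A second hairpin for miR-29b (195037091 to 195037113, plus strand) lies on chromosome 1 beside miR-29c (195037600 to 195037621, plus strand). miR-30a (23272274 to 23272295) and a hairpin for miR-30c (23291714 to 23291736) lie on the plus strand of chromosome 1. miR-30e (120772660 to 120772681) and the other miR-30c hairpin (120769584 to 120769606) lie on the minus strand of chromosome 4, inside the gene Nfyc. The hairpins of miR-30b and miR-30d are neighbours of each other. The array reads the mature RNA, so the 2 hairpins of miR-29b, and the 2 of miR-30c, cannot be told apart.

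Of the 8 members, 5 were detected on at least 1 array. Detection means that over 0.5 of a probe's spots, outlier spots left out, carried the scanner software's flag for a signal well above background. By its brightest probe, miR-30c was well above background on all 6 arrays, miR-29a and miR-30b on 5, miR-30d on 3 and miR-30a on 1. miR-29b, miR-29c and miR-30e were so on 0 arrays. Over the whole array 27.0% of miRNAs were well above background on all 6 arrays, beside 1 of the 8 members here. On at least 1 array 36.7% were, beside 5 of the 8 members. The software's own call for a whole miRNA was wider, marking miR-30b and miR-30c on 6 arrays, miR-29a and miR-30a on 5 and miR-30d on 4, and the 3 remaining members on 0.

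**Figure D1:**
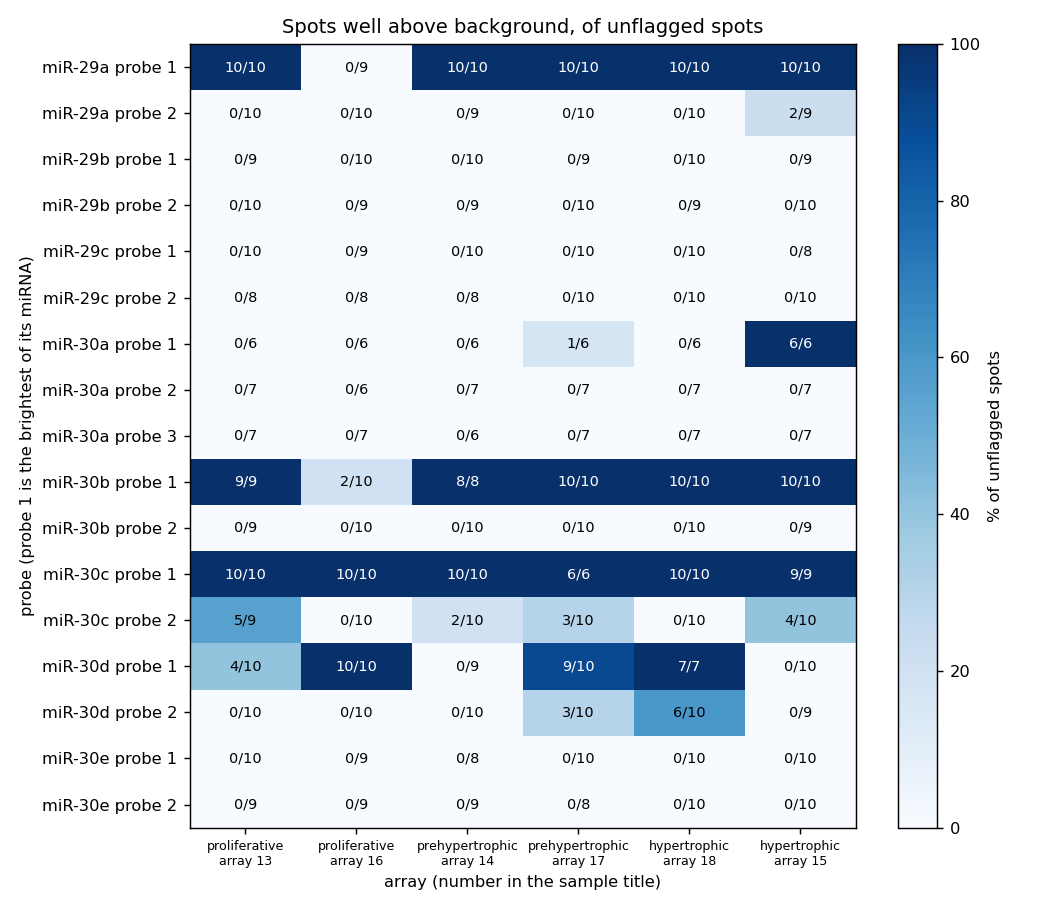
Unflagged spots that were well above background for each of the 17 probes (rows) on each array (columns, by zone and title number), as a count of the probe's unflagged spots, with shading as a percentage. The brightest probe of miR-30c is dark on all 6 arrays, those of miR-29a and miR-30b on all but array 16, and that of miR-30d on arrays 16, 17 and 18.

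Detection also differed between hairpin neighbours and between probes of one miRNA. miR-29a was detected on 5 arrays while miR-29b, its neighbour on chromosome 6, was detected on 0. miR-30c was detected on 6 arrays, against 1 for miR-30a and 0 for miR-30e, its neighbours on chromosomes 1 and 4. Of 102 pairs of a member's probe and an array, 22 were well above background, and they came from 7 of the 17 probes. The second probe of miR-29a and that of miR-30b were well above background on 0 arrays, and the second probe of miR-30c only on array 13, where 5 of 9 spots were.

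miR-30c, a member reported to target Runx2, gave the firmest values. Its scaled signal (linear units, after each array was set to a common level) was 58.4 and 37.7 on the proliferative arrays 13 and 16, 44.1 and 59.7 on the prehypertrophic arrays 14 and 17, and 52.4 and 34.9 on the hypertrophic arrays 15 and 18. The ranges of the 3 zones overlapped one another. On the log2 scale the means were 5.55 ± 0.45 for proliferative, 5.68 ± 0.31 for prehypertrophic and 5.42 ± 0.42 for hypertrophic arrays (SD, n = 2 each). Spots of this probe on one array varied with a coefficient of variation of 0.956% to 19.9%. The lowest was on array 17, where 6 spots were left without the outlier spots, and the next lowest was 6.32% on array 15. In bulk tissue like this, fewer cells of a type and less RNA per cell cannot be told apart.

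miR-30b, the miR-30 member with the next most detections, had scaled signals of 30.3 and 15.7 on arrays 13 and 16, 26.2 and 28.6 on arrays 14 and 17, and 30.9 and 20.5 on arrays 15 and 18. Array 16 was the lowest, and there only 2 of 10 spots were well above background. The zones overlapped, with log2 means of 4.45 ± 0.67 for proliferative, 4.78 ± 0.09 for prehypertrophic and 4.66 ± 0.42 for hypertrophic arrays (SD, n = 2 each).

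miR-29a, the detected collagen-targeting member, had scaled signals of 29.5 and 8.25 on arrays 13 and 16, 22.0 and 18.3 on arrays 14 and 17, and 34.4 and 22.1 on arrays 15 and 18. On array 16 no spot of 9 was well above background, and the value lay under the floor of 12.7 scaled units that was applied before log2 was taken. Array 16 had the lowest 75th percentile of signal before scaling, 108 units against 131 to 190 units on the other arrays. Its lowest scaled signal that counted as well above background was 17.1, against 11.3 to 12.9 on the other arrays. The log2 means of miR-29a, with array 16 at the floor, were 4.27 ± 0.86 for proliferative, 4.33 ± 0.19 for prehypertrophic and 4.78 ± 0.45 for hypertrophic arrays (SD, n = 2 each).

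**Figure D2:**
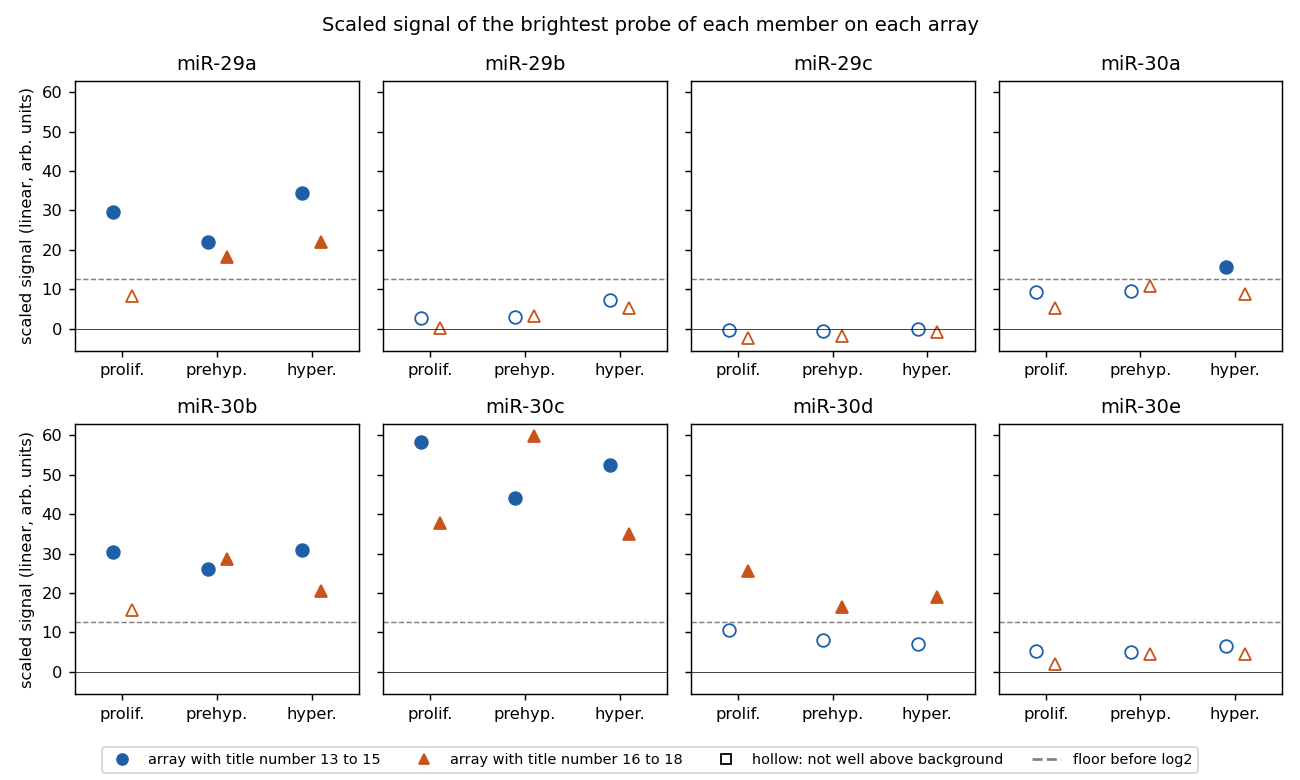
Scaled signal (linear, arbitrary units) of each member's brightest probe on the 6 arrays, by zone, with the 2 title-number runs as circles and triangles, hollow marks for probes not well above background and a dashed line at the floor of 12.7. The zones of miR-30c, miR-30b and miR-29a overlap or touch, and the filled marks of miR-30d are the 3 triangles.

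The study compared the zones, which asks how miRNA levels differ as chondrocytes mature. The test was limma's moderated test on all 6 arrays, over the 226 miRNAs that were detected on both arrays of some zone (32.8% of those on the array). Of the 8 members, 3 entered it, miR-29a, miR-30b and miR-30c. None passed an adjusted p of 0.05 in any contrast, and at an unadjusted p under 0.05 the count was also 0 in each. Over all 226 tested miRNAs, 59 had an unadjusted limma p under 0.05 for hypertrophic over proliferative, 29 for prehypertrophic over proliferative and 33 for hypertrophic over prehypertrophic.

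Between the hypertrophic and the proliferative zone, 14.6% of tested miRNAs passed the limma threshold (5.75% as higher, 8.85% as lower), and 0 of the 3 members did. The log2 fold change of miR-29a was 0.51 (SE 0.39, 95% confidence interval -0.36 to 1.39, adjusted p = 0.53). That of miR-30b was 0.21 (interval -0.56 to 0.98, adjusted p = 0.795) and that of miR-30c -0.14 (interval -0.85 to 0.58, adjusted p = 0.853). The intervals reach a 2.61-fold higher level of miR-29a, a 1.97-fold higher level of miR-30b and a 1.81-fold lower level of miR-30c in the hypertrophic zone. The median of the 3 members was 0.21, beside -0.0017 over all 226.

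Single proliferative arrays decided the value of miR-29a. Without array 16 its log2 fold change between the hypertrophic and proliferative zones was -0.033, and without array 13 it was 1.11 (limma adjusted p = 0.149). For miR-30b the same values were -0.20 and 0.68, and for miR-30c -0.38 and 0.18. With the slide row as a block, miR-29a was at -0.10, miR-30b at -0.27 and miR-30c at -0.45. On the values of the authors' deposited table, where signals under 1 unit are set to 1, miR-29a was at 2.02 (limma adjusted p = 0.248). There its log2 value on array 16 was -4.25, against -0.79 to 0.35 on the other arrays.

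Between the prehypertrophic and the proliferative zone, 2.21% of tested miRNAs passed the limma threshold, and again 0 of the 3 members. The log2 fold change, prehypertrophic minus proliferative, was 0.05 for miR-29a (SE 0.39, adjusted p = 0.989), 0.33 for miR-30b (SE 0.35, adjusted p = 0.741) and 0.13 for miR-30c (SE 0.32, adjusted p = 0.919). The intervals ran from -0.82 to 0.93, -0.44 to 1.10 and -0.59 to 0.85, in that order. The median of the members was 0.13, beside -0.14 over all miRNAs tested. Without array 16 all 3 values changed sign, to -0.46 for miR-29a, -0.049 for miR-30b and -0.089 for miR-30c. With the slide row as a block they were 0.66, 0.80 and 0.44 for the same members (limma adjusted p = 0.374, 0.34 and 0.47). On the values of the authors' deposited table they were 1.59, 0.51 and 0.44. The value of miR-29a, with array 16 at the floor, was 0.36 at 0.5 times the floor and -0.11 at 2 times the floor.

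Between the hypertrophic and the prehypertrophic zone, 1.33% passed, and 0 of the 3 members. The log2 fold change, hypertrophic minus prehypertrophic, was 0.46 for miR-29a (SE 0.39, limma adjusted p = 0.466), -0.12 for miR-30b (SE 0.35, adjusted p = 0.813) and -0.26 for miR-30c (SE 0.32, adjusted p = 0.602). The lower of the hypertrophic arrays and the higher of the prehypertrophic arrays were level for miR-29a, at 22.1 and 22.0 scaled units. The slide has 2 rows, row 1 with arrays 13, 15 and 18 and row 2 with arrays 14, 16 and 17, so these zones and the rows can be told apart only through the proliferative arrays. With the row as a block the log2 fold change was -0.76 for miR-29a, -1.07 for miR-30b and -0.89 for miR-30c, with limma adjusted p of 0.148 for miR-30b. Without array 18 the values were 0.78 for miR-29a, 0.18 for miR-30b and 0.036 for miR-30c. On the values of the authors' deposited table miR-30c was at -0.61. In the F test over the 3 zones, where 7.96% of miRNAs passed, the members had adjusted p of 0.604 (miR-29a), 0.765 (miR-30b) and 0.803 (miR-30c).

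**Figure D3:**
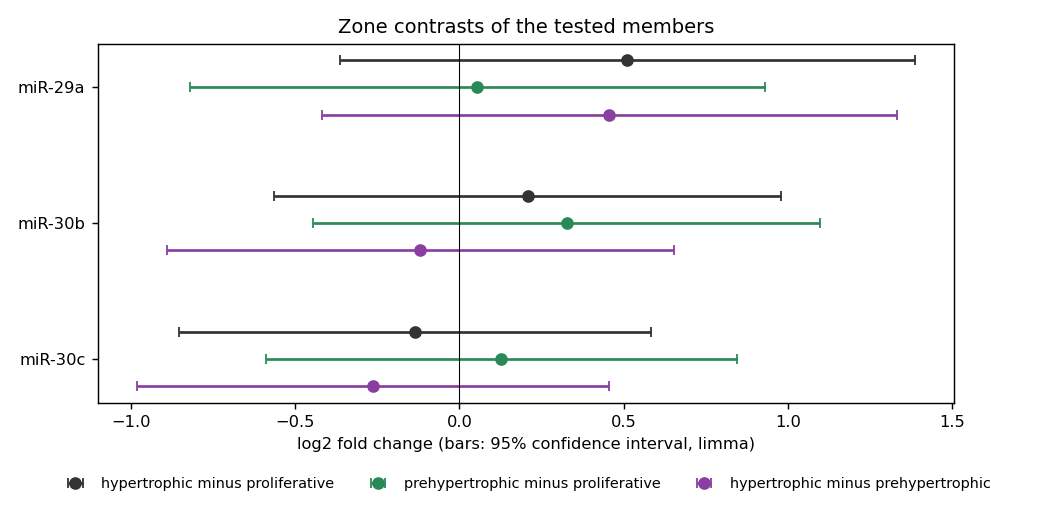
Log2 fold change (horizontal axis) of miR-29a, miR-30b and miR-30c in the 3 contrasts between zones, as points with 95% confidence intervals from limma. All 9 intervals include 0.

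Differences between members on the same array are not altered by a scale factor per array. They were taken on the 5 arrays where miR-29a, miR-30b and miR-30c were all well above background, a choice made after the values were seen, and are given relative to array 13, the only proliferative array among them. miR-29a relative to miR-30c stood 0.38 and 0.33 log2 units higher on the hypertrophic arrays 15 and 18. On the prehypertrophic arrays 14 and 17 it stood at -0.014 and -0.72. miR-30b relative to miR-30c stood at 0.18 on each hypertrophic array and at 0.20 and -0.12 on arrays 14 and 17. These changes were not tested.

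miR-30d split by the title numbers and not by zone, a pattern noticed after its values were seen and given with no test. Its scaled signal was 25.6 on array 16, 16.4 on array 17 and 19.1 on array 18, against 10.6 on array 13, 8.07 on array 14 and 7.19 on array 15. Each run of numbers holds 1 array of each zone, and in every zone the array of the higher run was above that of the lower run. The second probe of miR-30d split the same way, at 15.6, 11.7 and 13.3 on arrays 16, 17 and 18, against 6.52, 5.47 and 6.80 on arrays 13, 14 and 15. That probe was well above background only on array 18, with 6 of 10 spots, against 0 of 10 on array 16 and 3 of 10 on array 17. No label says what a run is.

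Before scaling the signals of miR-30d were 19.3, 17.6 and 19.3 on arrays 16, 17 and 18, against 9.66, 8.21 and 9.49 on arrays 13, 14 and 15, so the zones within a run differed less than the runs did. Of 253 miRNAs well above background on at least 1 array, 11.1% had all 3 arrays of the higher run above all 3 of the lower run, and 0.791% the reverse. Without scaling these counts were 9 and 8, and both probes of miR-30d kept their split under each of the 4 other scalings. Only 3 of the 690 miRNAs were well above background on exactly arrays 16, 17 and 18: miR-30d, miR-124 and miR-1946a. The remaining members did not share this split: miR-29a was lower on the array of the higher run in each zone, by 1.22, 0.27 and 0.64 log2 units in the proliferative, prehypertrophic and hypertrophic zones, with array 16 at the floor. Whether the runs differ in animals, dissection or labelling was not tested.

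**Figure D4:**
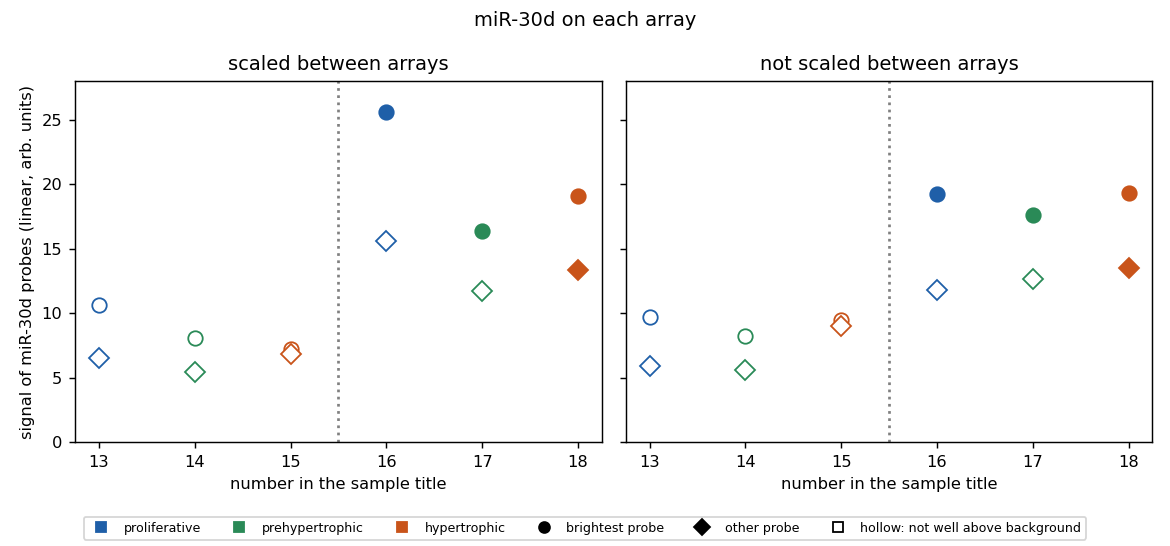
Signal of both miR-30d probes (linear, arbitrary units) against the number in the sample title, scaled between arrays (left) and before scaling (right), with zones by colour and hollow marks for probes not well above background. On both panels every mark of a probe on arrays 16 to 18 lies above that probe's marks on arrays 13 to 15.

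The dim members stayed close to the background. By its brightest probe miR-30a reached the threshold only on the hypertrophic array 15, at 15.7 scaled units with 6 of 6 spots well above background. That probe lay between 5.20 and 10.8 on the other arrays. The other probes of miR-30a read -1.27 and 3.14 on array 15, with 0 spots well above background. The brightest probe of miR-30e, which differs from miR-30a by 1 base, lay between 1.86 and 6.52. The brightest probe of miR-29b lay at 2.77 and 0.132 on the proliferative, 2.88 and 3.08 on the prehypertrophic and 7.37 and 5.24 on the hypertrophic arrays, with 0 spots well above background. Both hypertrophic arrays were the highest, but these values are under the detection limit and were not tested. The probes of miR-29c lay between -2.73 and -0.0390 on all 6 arrays, below their subtracted background, although miR-29c differs from the detected miR-29a by 1 base. For these 4 members no fold between zones is given.

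The passenger arms, the opposite strands of the same hairpins, were mostly undetected. Of 8 on the array, 6 were well above background on no array. miR-30b* was so on array 13 alone, where its brightest probe read 42.4 scaled units, against 3.43 to 7.04 on the other 5 arrays. miR-30c-1* was so on array 18 alone, at 18.2 units, against 8.09 to 11.7 elsewhere. miR-384-5p, which shares the miR-30 seed, lay between -4.82 and -3.25 and was not detected.

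Among 11 other miRNAs reported to target Runx2, 9 were well above background on no array, among them miR-204, miR-211, miR-133a and miR-218. The 2 tested were miR-23a, with a log2 fold change of 0.19 between the hypertrophic and proliferative zones, and miR-205, with 0.18 (limma adjusted p = 0.795 for each), and 0 of them passed in any contrast, adjusted or not. Of 6 other miRNAs reported to act on cartilage matrix, its enzymes or the gene Sox9, 5 were on the array, all but miR-1247. Among these miR-145 was well above background on no array. The remaining 4 were tested, and 0 passed in any contrast. Between the hypertrophic and proliferative zones miR-455 had a log2 fold change of -0.78 (limma adjusted p = 0.0592), miR-140 of -0.76 (0.138), miR-148a of -0.32 (0.585) and miR-27b of -0.26 (0.789). Their median was -0.54. At an unadjusted p under 0.05, 2 of these 4 passed in that contrast, beside 59 of all 226 miRNAs tested.

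The miRNAs most like miR-30c in their pattern were sought by the root mean square difference of log2 signals, each centred on its own mean over the 6 arrays. They were miR-26b (0.14 log2 units), miR-24 (0.14) and miR-106b (0.15), beside a median of 0.46 over the 225 other tested miRNAs. Their log2 fold changes between the hypertrophic and proliferative zones were -0.28, -0.039 and -0.071. These miRNAs were picked for the smallest differences, so lying under the median follows from the choice. This measure describes these 6 arrays only.

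On the tissue itself, the chondrocyte miRNAs miR-140, miR-140*, miR-455 and miR-455* were well above background on all 6 arrays. Their summed scaled signal was 10367 and 6461 on the proliferative arrays 13 and 16, 6824 and 6922 on the prehypertrophic arrays 14 and 17, and 4912.5 and 3910.1 on the hypertrophic arrays 15 and 18. The sum was thus lowest on the hypertrophic arrays, and miR-140* was the largest part of it on every array. The log2 fold change, hypertrophic minus proliferative, was -0.98 for miR-140*, -0.78 for miR-455 and -0.76 for miR-140. That of miR-455* had the opposite sign, at 0.37. For hypertrophic over proliferative, limma's adjusted threshold was passed by 0 of the 4, beside 14.6% of tested miRNAs. An unadjusted limma p under 0.05 was found for 3 of the 4, beside 59 of all 226 tested. miR-140 and miR-455 also belong to the matrix list above. The summed scaled signal of 7 blood miRNAs was 8.47 and 19.7 on the proliferative arrays 13 and 16, 32.9 and 31.0 on the prehypertrophic arrays 14 and 17, and 281 and 251 on the hypertrophic arrays 15 and 18. Of these miR-451, the erythroid miRNA, gave 13.8 and 9.77 on arrays 13 and 16, against 254 and 226 on arrays 15 and 18. On the same arrays miR-223 gave 12.9 and 13.2, against 29.8 and 19.4, and miR-486 gave 0.0913 and 18.1, against 4.55 and 16.2. The remaining 4 of the 7 were never detected, and the sums include negative readings. Of the endothelial markers miR-126-3p was detected only on the hypertrophic arrays, and miR-126-5p on none. Skeletal and smooth muscle miRNAs were detected on no array. The part of chondrocyte, blood and endothelial RNA in the members' values was not tested.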

How the data were processed

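Each of the 6 arrays was deposited as a scanner table of spot intensity from Agilent Feature Extraction 10.7.3.1, per the file headers, with 13800 miRNA spots, 384 to 515 of them outliers and 0 saturated. The authors' deposited value table holds log2 total gene signals that differ from the scanner files' by a constant per array, with its origin unstated, and served as an alternative. Processed signals were averaged per probe without outlier spots, and each array was scaled to the 75th percentile of the 342 probes well above background on all arrays. Signals were floored at 12.7 and put on the log2 scale, and the brightest probe stood for each miRNA. limma 3.58.1 in R 4.3.3 tested 226 miRNAs with zone as a factor and Benjamini-Hochberg adjustment at 0.05. All members are named, with the 3 miRNAs nearest in pattern to miR-30c, the member well above background on all 6 arrays. Members and lists were chosen with earlier results of these data known. The alternatives were other scalings, background correction, filters, floors, probe summaries, the slide row or title-number run as a block, and each array left out. All arrays shared 1 slide and 1 scan. With 2 arrays a zone, their number limits the precision.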

Additional observations from a re-analysis of the deposited data

How the results depend on the processing

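Members past the threshold numbered 0 in all contrasts under every alternative run. Counts over all miRNAs moved, and the larger changes are listed for each test. For hypertrophic over proliferative, 33 (13 higher, 20 lower) became 11 (10 higher, 1 lower) when the percentile took in every probe, 12 (11 and 1) by medians, 19 (11 and 8) by quantiles, 16 (16 and 0) unscaled, 21 with outlier spots kept, 1 without a filter, 8 at a doubled floor, 20 with probes averaged and 20 in the authors' values. Smaller changes there were to 45 with the slide row as a block, 40 with the run as a block and 38 at the lower floor. Normexp gave 35, detection on all arrays 28 and every probe in the fit 25. For prehypertrophic over proliferative, 5 became 3 (all probes), 3 (median), 1 (unscaled), 0 (no filter), 3 (detected on all arrays), 0 (doubled floor), 8 (lower floor) and 10 (authors' values). For hypertrophic over prehypertrophic, 3 became 5 unscaled and 5 with the run as a block, and 1 under no filter, detection on all arrays, the doubled floor, averaged probes and the slide row as a block. In the F test, 18 became 5, 11 and 8 (all probes, median, unscaled), 1 and 1 (no filter, doubled floor), 32 (lower floor), 11 (averaged probes) and 32 (slide row). Leaving out each array gave 1 to 38, 0 to 4, 1 to 3 and 1 to 10, in the same order of tests.

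Members changed sign as follows, in log2 units, and the cause was not tested. For hypertrophic over proliferative, miR-30c was at 0.35 unscaled, and miR-29a and miR-30b were at -0.059 and -0.18 with normexp and at -0.10 and -0.27 with the slide row. For prehypertrophic over proliferative, miR-29a, miR-30b and miR-30c were at -0.16, -0.12 and -0.077 with normexp, and miR-29a and miR-30b at -0.11 and -0.017 at the doubled floor. For hypertrophic over prehypertrophic, miR-30b was at 0.024 unscaled and 0.031 at the doubled floor, and miR-29a at -0.76 with the slide row. Leaving out each array moved the first contrast between -0.033 (without array 16) and 1.11 (without 13) for miR-29a, -0.20 (16) and 0.68 (13) for miR-30b, and -0.43 (15) and 0.18 (13) for miR-30c. For prehypertrophic over proliferative the ranges were -0.46 (16) to 0.65 (13), -0.049 (16) to 0.79 (13) and -0.092 (17) to 0.43 (13) for the same members. For hypertrophic over prehypertrophic they were 0.14 (15) to 0.78 (18), -0.41 (15) to 0.18 (18) and -0.55 (15) to 0.036 (18). The median of miR-30b and miR-30c moved to 0.48 unscaled (hypertrophic over proliferative) and -0.98 with the slide row (hypertrophic over prehypertrophic). Without scaling the median of all miRNAs for hypertrophic over proliferative shifted by 0.46, while miR-30c went from -0.135 to 0.35.

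Normexp was run, after the files were seen, on median signals, since mean signals were not in the tables used here. The labels give the zones no shared replicate number. With the run of title numbers as a block, the members' log2 fold changes stayed as they were, and for hypertrophic over proliferative the limma adjusted p of miR-29a was 0.268. Where an array was left out, the lone array of its zone was assumed to vary like the others. Signals of miR-29a, miR-30a, miR-30b and miR-30d lay near the limit of detection, which limits what their values can show.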
